A study of Homo sapiens with 6 samples.

Results

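The cytochrome P450 genes of Huh7 cells, a human hepatoma line, were compared between cells that received a plasmid carrying the circular RNA hsa_circ_0098181 and cells that received the control plasmid. The group was defined by gene symbol, as CYP followed by a family number, a subfamily letter and a gene number, with CYP51A1 set aside. It held 55 of the 50868 genes in the deposited table. 54 of them were annotated as protein coding, and CYP2D7 was annotated as a polymorphic pseudogene in GENCODE 29.

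The overexpression group and the control group held 3 libraries each of total RNA, taken 48 h after transient transfection with a lipid reagent. All 6 libraries came from the same line in the same medium, and the plasmid expressed the circular RNA from a vector and not from its own locus. The sources used here do not say whether the libraries of a group came from separate cultures, so p-values measure the spread between these libraries, which may be technical. Library totals ran from 11130902 to 14138262 reads, and mitochondrial genes took 6.32% to 9.29% of them, the highest share being that of control replicate 1. SOX5, the host gene of the circular RNA, rose in the overexpression group (log2 fold change 5.88 ± 0.16 (SE), edgeR adjusted p = 2.6e-06, n = 3 and 3), and every overexpression library exceeded every control. Gene counts do not separate the circular from the linear RNA of SOX5. Of 8 hepatocyte markers, all were measured, with AFP at 10801 to 13276 CPM (reads scaled to a common library size) and ALB at 4365 to 5843 CPM. Of 7 markers of other cell types, KRT19, a bile duct keratin, stood at 105 to 150 CPM and PECAM1, an endothelial adhesion molecule, at 46.9 to 59.1 CPM, KRT7 had reads in 1 library, and none of the 5 that could be tested reached an unadjusted p of 0.05 between the groups.

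Cytochrome P450 enzymes are heme proteins that insert an oxygen atom into a substrate, with electrons passed from NADPH by POR in the endoplasmic reticulum or by ferredoxin in mitochondria. The liver uses families 1 to 3 to oxidize drugs and other foreign compounds, and further families to handle fatty acids, bile acids, vitamin D, retinoids and steroids. Many of these genes are induced by ligand-activated regulators such as AHR, PXR (NR1I2), CAR (NR1I3) and PPARA, and hepatoma lines are known to have lost much of the expression seen in hepatocytes.

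The 5 promoter stretches printed here belong to the P450 genes that the results turn on: CYP27A1 and CYP2J2 had the highest levels, CYP1A1 and CYP3A5 were lower in every overexpression library, and CYP26B1 had the largest positive difference. Each run is the 150 bases before the RefSeq start of the gene on GRCh38.p14, written 5′ to 3′ on the strand of the gene. This start differs from the gene ends in the deposited table. The CYP27A1 and CYP26B1 runs lie wholly within those ends, and the CYP1A1, CYP2J2 and CYP3A5 runs in part. The capitals mark matches to 4 motifs searched on both strands. TATAAA positions the start of transcription in many regulated promoters. The core of the site for AHR and its partner ARNT reads GCGTG. A nuclear receptor half-site reads AGGTCA, and the factor NF-Y binds CCAAT. No matches overlapped within these stretches.
CYP1A1, chr15:74725529-74725678, minus strand: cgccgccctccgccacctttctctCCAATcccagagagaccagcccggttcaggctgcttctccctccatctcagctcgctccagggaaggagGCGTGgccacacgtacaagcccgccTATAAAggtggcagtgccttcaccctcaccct
CYP3A5, chr7:99679997-99680146, minus strand: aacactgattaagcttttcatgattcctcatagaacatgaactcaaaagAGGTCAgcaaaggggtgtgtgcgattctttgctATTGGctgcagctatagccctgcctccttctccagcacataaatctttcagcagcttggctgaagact
CYP26B1, chr2:72147863-72148012, minus strand: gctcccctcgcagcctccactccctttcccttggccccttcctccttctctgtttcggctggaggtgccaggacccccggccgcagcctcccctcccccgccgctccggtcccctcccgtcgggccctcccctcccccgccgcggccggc
CYP27A1, chr2:218781997-218782146, plus strand: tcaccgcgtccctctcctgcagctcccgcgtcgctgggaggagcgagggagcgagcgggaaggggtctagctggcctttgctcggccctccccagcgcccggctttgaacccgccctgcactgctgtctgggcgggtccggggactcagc
CYP2J2, chr1:59926774-59926923, minus strand: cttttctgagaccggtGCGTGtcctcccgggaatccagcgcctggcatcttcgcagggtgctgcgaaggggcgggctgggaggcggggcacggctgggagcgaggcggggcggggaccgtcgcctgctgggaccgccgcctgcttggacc

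The CYP1A1 stretch held TATAAA at position -32, GCGTG at -57 and CCAAT at -126, counted from the RefSeq start of the gene. The CYP3A5 stretch held AGGTCA at -101 and CCAAT on the opposite strand at -68. CYP2J2 had 1 GCGTG at -134, and the CYP26B1 and CYP27A1 stretches held none of the 4 motifs. G and C made up 76.7% of the CYP26B1 stretch, 73.3% of that of CYP2J2, 72.0% of that of CYP27A1, 63.3% of that of CYP1A1 and 44.7% of that of CYP3A5. In the full window of 300 bases (250 before and 50 after the start), which was held for 38 of the 55 genes, 36.8% of the P450 promoters contained TATAAA and 31.6% contained AGGTCA. Over all 27305 promoters of the same length, these shares were 12.0% and 13.9%. GCGTG was found in 26.3% of the P450 promoters and 36.3% of all promoters, and CCAAT in 47.4% and 35.7%. The full window of CYP26B1 contained both TATAAA and CCAAT on either strand, although its printed stretch held neither. These matches describe letters in a window and say nothing of binding.

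Most of the P450 genes had few or no reads in Huh7 cells. Reads over the 55 genes made up 0.0289% to 0.0318% of a library. 10 genes were at 0 in all 6 libraries: CYP1A2, CYP2A6, CYP2A7, CYP2A13, CYP2F1, CYP4A22, CYP4F22, CYP4Z1, CYP11B1 and CYP11B2. A count of 0 allows up to 3 reads, or 0.212 to 0.270 CPM depending on the library, by counting error alone. A further 11 genes had 1 to 9 reads in total, namely CYP2W1, CYP4A11, CYP4B1, CYP4F8, CYP4X1, CYP7A1, CYP7B1, CYP8B1, CYP11A1, CYP24A1 and CYP27C1. The other 34 had at least 10. The 9 genes with the most reads held 82.7% of all P450 reads. The filter on low counts left 23 genes to be tested, and 32 were not tested.

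**Figure D1:**
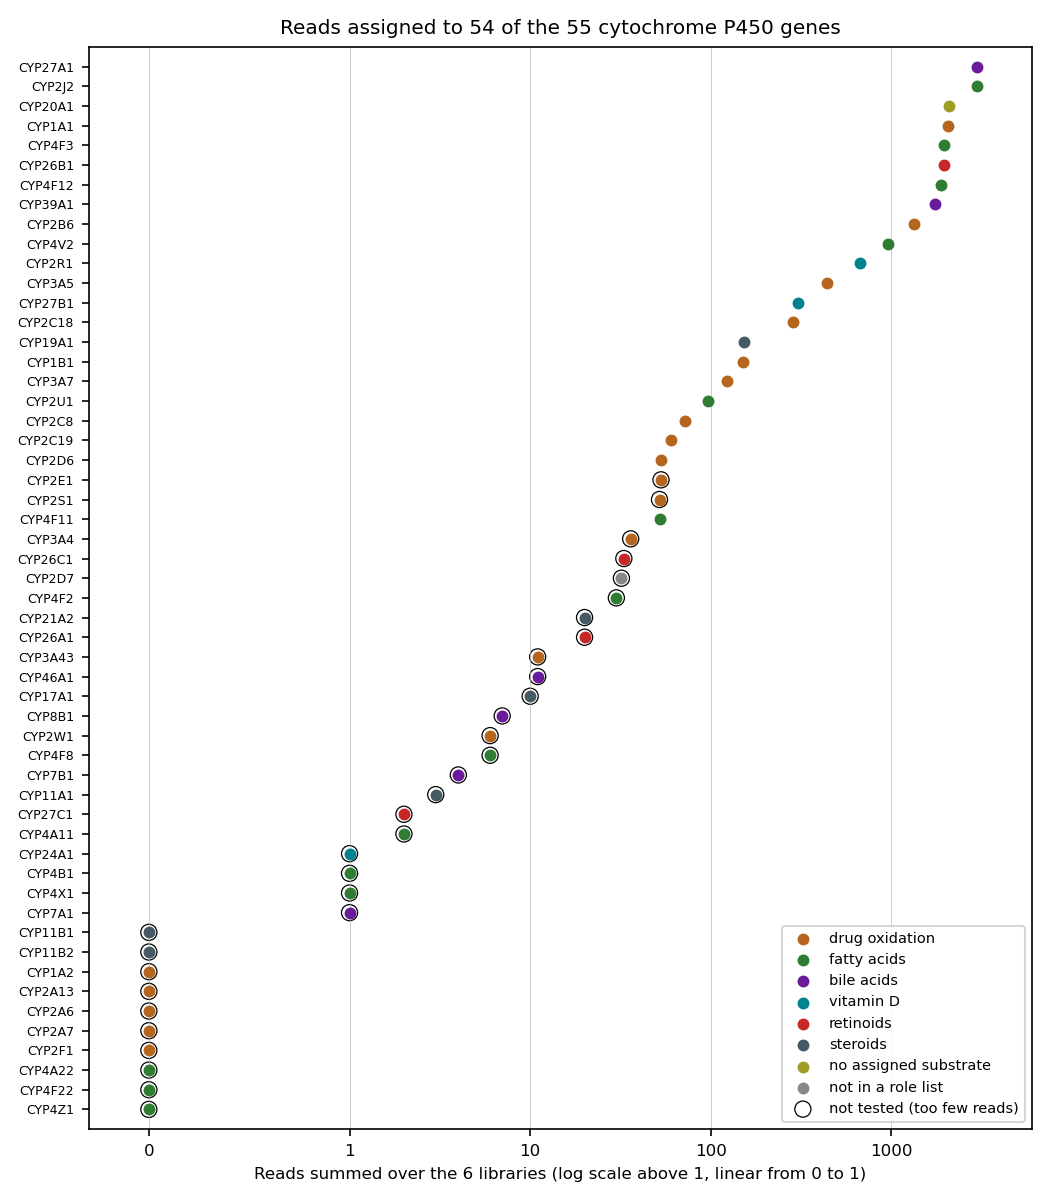
Reads summed over the 6 libraries for 54 of the 55 P450 genes, on a horizontal axis that is logarithmic above 1 and linear from 0 to 1. Colours give the role of the enzyme and open rings mark the 32 genes with too few reads to be tested. 10 genes lie at 0, and CYP27A1 and CYP2J2 lie farthest to the right.

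Per kilobase of exon, which allows genes to be compared, CYP27A1 had 13.3 ± 1.36 CPM (SD over 6 libraries) and CYP2J2 had 13.2 ± 2.31. These values did not differ beyond their spread. CYP20A1 followed at 8.91 ± 0.763, CYP1A1 at 8.05 ± 1.84 and CYP39A1 at 7.42 ± 0.752, and these neighbours overlapped within their SD. CYP26B1 (5.01 ± 2.15), CYP4F3 (4.74 ± 1.14), CYP2B6 (4.71 ± 0.658) and CYP4F12 (4.67 ± 0.341) had levels that their SD did not separate. CYP2R1 was at 1.98 ± 0.288 CPM per kilobase, and the remaining tested genes ran from 1.58 for CYP2C18 down to 0.175 for CYP4F11. The position of CYP20A1 depends on its length: it ranked 3 by merged exon length and 9 by the deposited FPKM, whose length for this gene was 5.32 times longer. Other ranks moved as well. By FPKM, CYP2J2 ranked 1, CYP27A1 2, CYP39A1 3 and CYP2B6 5.

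None of the 23 tested P450 genes passed an adjusted p of 0.05 in either direction, against 4 higher (0.0266%) and 2 lower (0.0133%) among the 15055 genes tested (edgeR, quasi-likelihood, adjusted by Benjamini-Hochberg). The lowest adjusted p among them was 0.797. DESeq2 called none of them either, and limma on the deposited FPKM called none of the 10 that passed its filter. At an unadjusted p under 0.05, no P450 gene was higher (2.42% of all genes) and 1, CYP1A1, was lower (4.35% of the 23, against 3.08% of all genes). No P450 gene was higher without overlap between the groups (6.40% of all genes). CYP1A1 and CYP3A5 were lower without overlap, which is 8.70% of the 23 against 6.50% of all genes. These shares rest on 1 or 2 genes.

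The summed level of the 55 genes was 303, 310.2 and 286 CPM in the overexpression libraries and 327, 299.9 and 300.4 CPM in the controls, so that the groups overlapped. Of the 23 tested genes, 9 had a positive and 14 a negative log2 fold change, and the median was -0.16, beside 0.0023 over all genes tested. The sign of this median turned on 1 library. Without control replicate 1, in which 15 of the 23 genes lay above their own mean, it was 0.036, with 14 positive and 10 negative of 24 genes, and without overexpression replicate 3 it was -0.094. Control replicate 1 was also the library with the highest mitochondrial share, and the part of that share in the result was not tested.

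**Figure D2:**
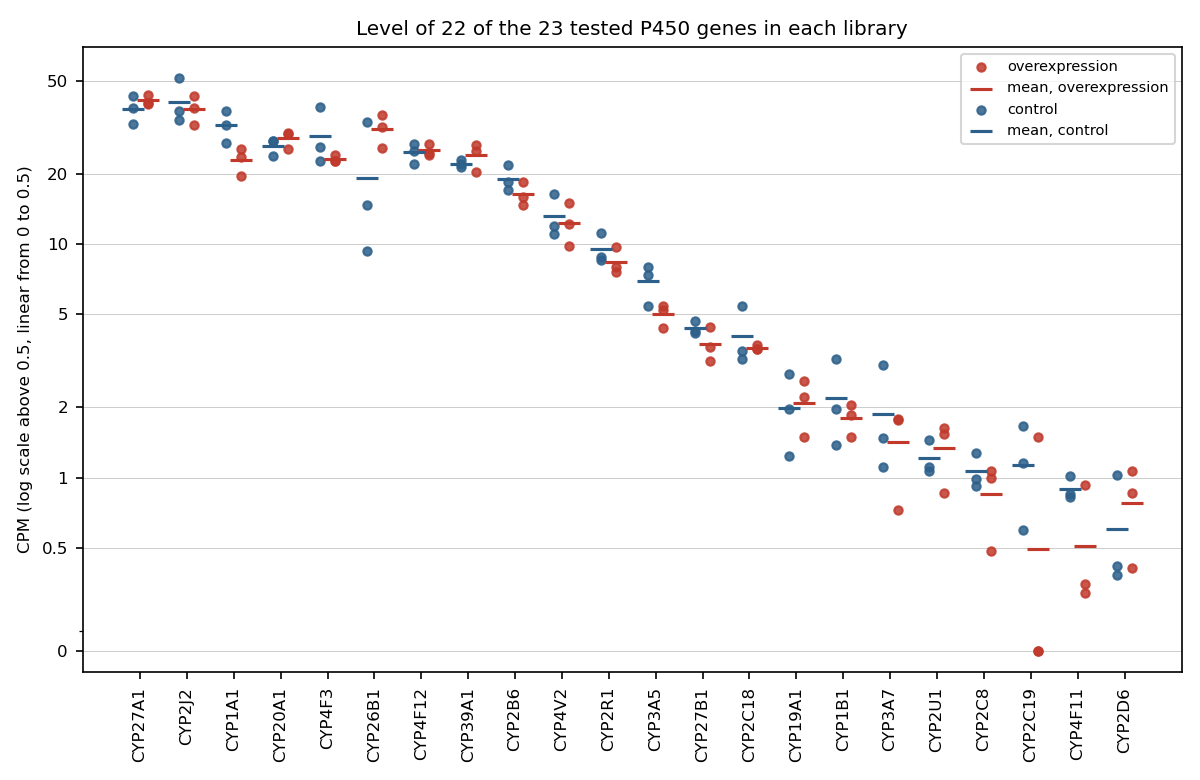
Level of 22 of the 23 tested P450 genes in CPM (vertical axis, logarithmic above 0.5 and linear below), with 1 point per library, red for overexpression and blue for control, and a bar at each group mean. Red and blue points overlap for every gene shown except CYP1A1 and CYP3A5, whose red points all lie below the blue ones.

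The drug-oxidizing genes of families 1 to 3 held 20 members, of which 10 were tested. 8 of these had a negative and 2 a positive log2 fold change, with a median of -0.30 beside 0.0023 over all genes. None passed the adjusted test. The summed level of the 20 genes was 58.3, 61.6 and 53.6 CPM in the overexpression libraries and 79.2, 67.4 and 76.5 CPM in the controls, so that the groups did not overlap. The exact permutation p of this sum was 0.1, the smallest this design allows. CYP1A1 held the largest part of the sum, with a mean of 23.0 CPM in the overexpression group and 32.3 CPM in the controls. Without control replicate 1, the median was -0.12, with 5 positive and 6 negative of 11 genes.

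CYP1A1 (ENSG00000140465, chromosome 15, 74719542 to 74725610, minus strand) oxidizes polycyclic aromatic hydrocarbons and is the classical target gene of AHR. It measured 23.6, 25.7 and 19.6 CPM in the overexpression libraries and 32.6, 27.3 and 37.2 CPM in the controls. All overexpression libraries lay below all controls. The log2 fold change was -0.49 ± 0.15 (SE), with a 95% interval of -0.84 to -0.14, an unadjusted p of 0.0116 (edgeR adjusted p = 0.797). The exact permutation test of 3 against 3 values gave a two-sided p of 0.1, the smallest this design allows. The estimate stayed between -0.60 and -0.36 over the alternative settings. Of its transcript stretches of 31 bases, 0.78% also occurred in another gene, CYP1A2, which had no reads. In bulk RNA, fewer cells expressing a gene and less RNA per cell cannot be told apart.

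CYP1B1, another AHR-induced enzyme, measured 2.05, 1.5 and 1.86 CPM in the overexpression libraries and 1.38, 1.96 and 3.21 CPM in the controls. The groups overlapped, and the interval of the log2 fold change ran from -1.07 to 0.50. The antisense gene CYP1B1-AS1 overlaps it, and the handling of strand in the counts is not stated. CYP1A2, the AHR-induced enzyme of adult hepatocytes that oxidizes caffeine, had no reads.

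CYP3A5 (chromosome 7, 99648194 to 99679998, minus strand) oxidizes many drugs and steroids. It was read at 5.24, 4.35 and 5.41 CPM in the overexpression libraries and at 7.38, 8.01 and 5.43 CPM in the controls. The groups did not overlap, although the highest overexpression library and the lowest control nearly met. The log2 fold change was -0.47 ± 0.21 (SE), with an interval of -0.95 to 0.0034 and an edgeR adjusted p of 0.797, and the exact permutation p was 0.1. In the stretches of 31 bases, 10.2% were shared with other genes, first among them CYP3A4.

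CYP3A7, the form of the fetal liver, measured 1.77, 1.78 and 0.727 CPM in the overexpression libraries and 3.05, 1.11 and 1.48 CPM in the controls, with a log2 fold change of -0.37 ± 0.47 (SE), an edgeR adjusted p of 0.872 and an exact permutation p of 0.6. The groups overlapped, and without control replicate 1 the log2 fold change was 0.15. CYP3A4, the main drug-oxidizing P450 of the adult liver, had 6, 6 and 1 reads against 10, 3 and 10 and was not tested. Of the CYP3A7 stretches, 41.2% occurred in other genes, first among them CYP3A7-CYP3A51P, a readthrough gene of 73 reads that overlaps it on the same strand. The sum of the 4 CYP3A genes leaves that gene out. This sum was 7.43, 6.71 and 6.38 CPM in the overexpression libraries and 11.5, 9.62 and 7.90 CPM in the controls, with no overlap. Its log2 fold change was -0.50 ± 0.18 (SE), at an unadjusted p of 0.0262 (edgeR adjusted p = 0.797). CYP3A5 held most of these reads (442, against 123 for CYP3A7, 36 for CYP3A4 and 11 for CYP3A43), so the sum largely repeats its values.

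CYP2B6, which oxidizes bupropion and efavirenz and is induced through CAR, measured 14.7, 18.6 and 15.9 CPM in the overexpression libraries and 21.8, 17.1 and 18.4 CPM in the controls. The groups overlapped at a log2 fold change of -0.22, with an interval of -0.55 to 0.11, and 22.7% of the CYP2B6 stretches occurred in other genes, first among them the pseudogene CYP2B7P. CYP2C18, on chromosome 10, was low and measured 3.54, 3.71 and 3.56 CPM against 5.44, 3.49 and 3.21 CPM in the controls. The groups overlapped, at a log2 fold change of -0.16. Of its stretches, 38.8% occurred in other genes, and RP11-400G3.5, with 52 reads, overlaps it on the same strand.

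CYP2C8, which oxidizes paclitaxel, measured 0.991, 1.07 and 0.485 CPM in the overexpression libraries and 0.923, 1.28 and 0.987 CPM in the controls. CYP2C19, which activates clopidogrel, had the largest negative estimate of the 23 genes and the least even reads. It had 21 reads in overexpression replicate 1 and 0 in the other overexpression libraries, against 18, 7 and 14 reads in the controls. The groups overlapped, and the log2 fold change of -1.13 ± 1.05 (SE) had an interval of -3.52 to 1.27, an edgeR adjusted p of 0.833 and an exact permutation p of 0.3. It was -0.55 without overexpression replicate 2 and -0.59 without overexpression replicate 3, and without overexpression replicate 1 that group had no reads of CYP2C19, so that the fitted value bounds nothing. Of its stretches, 54.0% occurred in other genes, and RP11-400G3.5 overlaps it on the same strand.

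CYP2D6, which oxidizes codeine and many antidepressants, had the second largest positive estimate, from 15, 12 and 5 reads against 4, 12 and 5. The groups overlapped, with a log2 fold change of 0.37 ± 0.53 (SE), an edgeR adjusted p of 0.888 and an exact permutation p of 0.6. It shared 45.8% of its stretches with other genes, chiefly CYP2D7, and the sum of both genes had a log2 fold change of -0.067. Among the untested drug-oxidizing genes, CYP2E1, which oxidizes ethanol and acetaminophen, had 6, 9 and 8 reads against 4, 17 and 9. CYP2S1 had 12, 8 and 9 reads against 6, 6 and 11, and CYP3A43 had 0, 2 and 2 against 2, 3 and 2. CYP2D7 had 6, 5 and 2 reads against 8, 6 and 5.

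Of the 8 genes listed as induced by PXR and CAR, 6 were tested, with 1 positive and 5 negative estimates and a median of -0.34. None of the 6 passed the adjusted test. Of the 3 AHR-induced genes, 2 were tested and both estimates were negative. Of the genes induced by PPARA, CYP4A22 had no reads and CYP4A11, a fatty acid hydroxylase, had 2 reads, both in overexpression replicate 3.

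**Figure D3:**
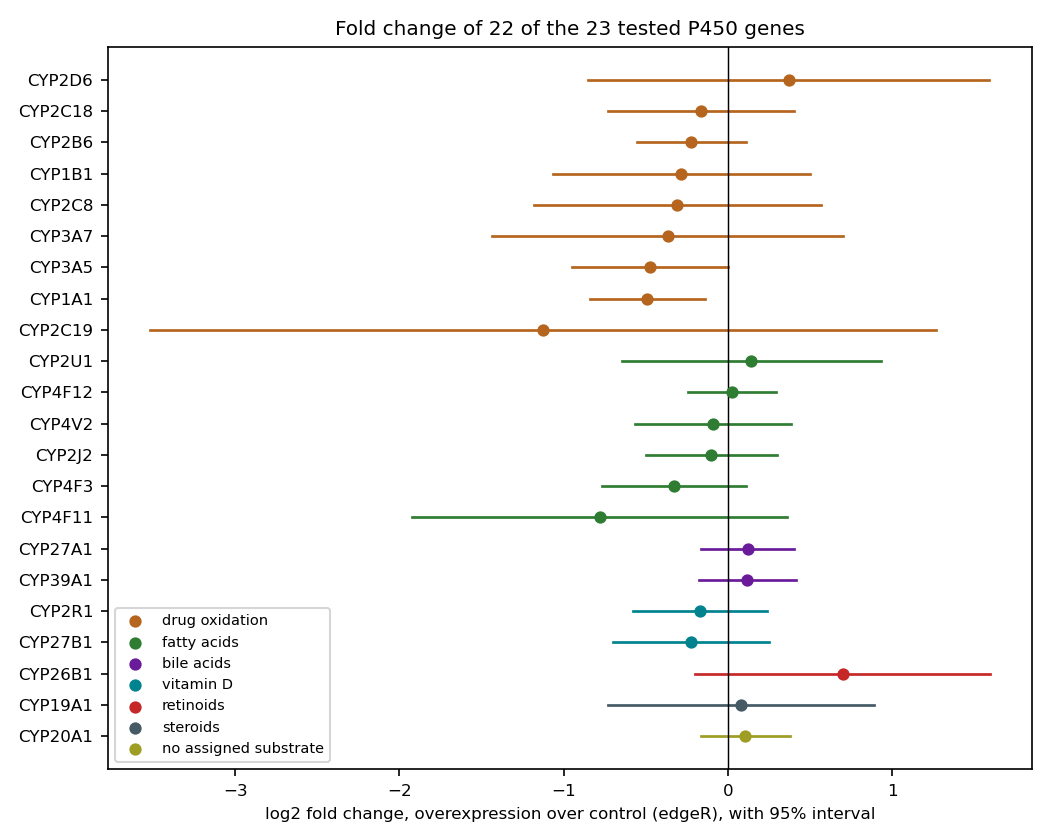
Log2 fold change of 22 of the 23 tested P450 genes, overexpression over control, with the 95% interval from edgeR as a line. Genes are grouped and coloured by role. Only the interval of CYP1A1 excludes 0, and 8 of the 9 drug-oxidizing genes shown lie to the left of 0.

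Of 14 genes of fatty acid and eicosanoid oxidation, 6 were tested, with 2 positive and 4 negative estimates and a median of -0.095. None passed the adjusted test. The median was 0.091 without control replicate 1, with 4 positive and 2 negative estimates, and -0.21 without control replicate 3. CYP2J2 (chromosome 1, 59893308 to 59926790, minus strand), which makes epoxides of arachidonic acid, measured 43.3, 38.4 and 32.6 CPM in the overexpression libraries and 51.3, 37.4 and 33.9 CPM in the controls. The groups overlapped, at a log2 fold change of -0.10 ± 0.17 (SE), an edgeR adjusted p of 0.911 and an exact permutation p of 0.7. None of its stretches was shared with another gene.

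CYP4F3 (chromosome 19, 15615617 to 15662825, plus strand) inactivates leukotriene B4. It measured 22.8, 24.1 and 22.6 CPM in the overexpression libraries and 26.0, 38.7 and 22.6 CPM in the controls. Control replicate 2 stood above the other libraries and control replicate 3 stood at the level of the lowest overexpression library. The log2 fold change was -0.33 ± 0.19 (SE), with an edgeR adjusted p of 0.797 and an exact permutation p of 0.3. Without control replicate 2, it was -0.069. In the stretches of CYP4F3, 21.5% were shared with other genes, and CYP4F8 overlaps it on the same strand.

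CYP4F12, a fatty acid hydroxylase of liver and gut, measured 24.1, 24.7 and 26.9 CPM against 26.9, 25.2 and 22.1 CPM in the controls. The ranges nearly coincided, with a log2 fold change of 0.027 ± 0.12 (SE), an edgeR adjusted p of 0.969 and an exact permutation p of 1. CYP4V2, the fatty acid hydroxylase mutated in Bietti crystalline dystrophy, measured 9.84, 15.1 and 12.2 CPM against 16.4, 12.0 and 11.1 CPM, which overlapped. It also overlaps KLKB1 on the same strand.

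CYP2U1, a hydroxylase of long-chain fatty acids, measured 1.63, 0.856 and 1.54 CPM against 1.11, 1.45 and 1.07 CPM, with a log2 fold change of 0.14 ± 0.34 (SE), an edgeR adjusted p of 0.938 and an exact permutation p of 0.8. CYP4F11, which hydroxylates long-chain fatty acids and vitamin K, had 4, 13 and 4 reads in the overexpression libraries and 11, 10 and 10 in the controls. In CPM, overexpression replicate 2 lay at 0.928, among the controls at 1.02, 0.852 and 0.823. The other overexpression libraries lay below every control, at 0.283 and 0.323 CPM. The log2 fold change of CYP4F11 was -0.78 ± 0.50 (SE), with an edgeR adjusted p of 0.797 and an exact permutation p of 0.3. The related CYP4F2 was not tested, with 3, 3 and 3 reads against 4, 10 and 7. Summed over CYP4F genes, which share sequence, the level was 47.4, 50.02 and 50.2 CPM against 54.4, 65.7 and 46.2 CPM, so that the groups overlapped at a log2 fold change of -0.17.

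Of 6 genes of bile acid and oxysterol metabolism, 2 were tested. CYP27A1 (ENSG00000135929, chromosome 2, 218781749 to 218815293, plus strand), the mitochondrial enzyme that oxidizes the sterol side chain, measured 43.7, 40.3 and 40.0 CPM in the overexpression libraries and 43.3, 38.3 and 32.6 CPM in the controls. The groups overlapped, at a log2 fold change of 0.12 ± 0.12 (SE), an edgeR adjusted p of 0.845 and an exact permutation p of 0.4. CYP39A1, which hydroxylates oxysterols, measured 26.5, 20.4 and 25.1 CPM against 21.4, 22.99 and 21.97 CPM. Overexpression replicate 2 was the lowest library of all 6 and the other overexpression libraries were the highest, with a log2 fold change of 0.12 ± 0.13 (SE), an edgeR adjusted p of 0.854 and an exact permutation p of 0.4.

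CYP7A1, the rate-limiting enzyme of classical bile acid synthesis, had 1 read in all libraries together. CYP8B1, which sets the share of cholic acid, had 7 reads and CYP7B1 of the alternative pathway had 4. CYP46A1, the cholesterol hydroxylase of brain, had 0, 0 and 2 reads against 6, 3 and 0.

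CYP26B1 (ENSG00000003137, chromosome 2, 72129238 to 72148038, minus strand), which clears retinoic acid, had the largest positive estimate. It measured 31.6, 35.8 and 25.9 CPM in the overexpression libraries and 14.7, 9.37 and 33.4 CPM in the controls. Control replicate 3 lay among the overexpression libraries, and the other controls were lower than any of them. The log2 fold change was 0.70 ± 0.39 (SE), with an interval of -0.20 to 1.6, an edgeR adjusted p of 0.797 and an exact permutation p of 0.3. The coefficient of variation was 66.0% among controls and 15.9% among overexpression libraries, where counting alone gives 5.55%, and the dispersion of this gene lay at percentile 96.3 of all genes tested. The estimate was 1.38 without control replicate 3, with an edgeR adjusted p of 0.321, and 0.37 without control replicate 2. None of its stretches was shared with another gene.

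The other retinoic acid hydroxylases were scarce. CYP26A1 had 3, 3 and 2 reads against 7, 3 and 2, and CYP26C1 had 10, 6 and 2 against 2, 7 and 6. Of the vitamin D enzymes, CYP2R1, which hydroxylates vitamin D in the liver, measured 7.57, 9.71 and 7.999 CPM against 11.2, 8.77 and 8.56 CPM in the controls. CYP27B1, which makes the active hormone, measured 3.61, 4.42 and 3.15 CPM against 4.15, 4.26 and 4.69 CPM. Both overlapped between groups, with log2 fold changes of -0.17 and -0.23, and CYP27B1 overlaps METTL1 on the same strand. CYP24A1, which degrades the hormone, had 1 read.

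Among the steroid hormone enzymes, CYP19A1 (aromatase, which makes estrogens) was tested and measured 1.49, 2.21 and 2.59 CPM against 2.77, 1.96 and 1.23 CPM, which overlapped at a log2 fold change of 0.079. CYP21A2 had 3, 0 and 4 reads against 2, 5 and 6, and CYP17A1 had 3, 1 and 3 against 1, 2 and 0. CYP20A1 (chromosome 2, 203238449 to 203305840, plus strand), an orphan enzyme with no assigned substrate, measured 25.6, 30.0 and 29.7 CPM against 23.9, 27.8 and 27.6 CPM. The groups overlapped, at a log2 fold change of 0.11 ± 0.12 (SE), an edgeR adjusted p of 0.856 and an exact permutation p of 0.4.

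**Figure D4:**
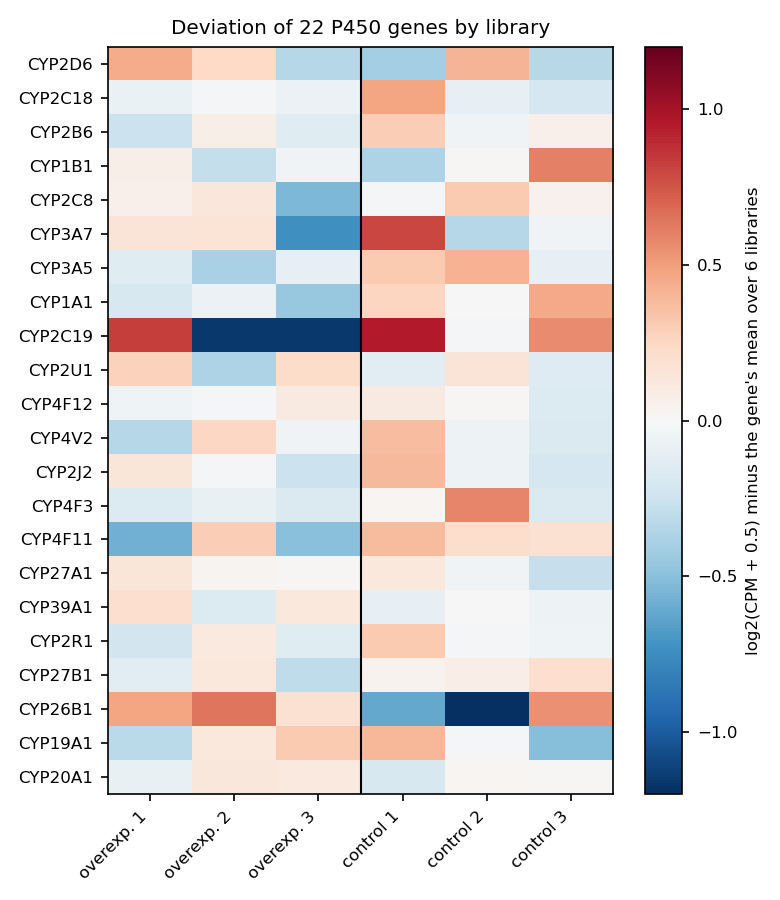
Deviation of 22 of the 23 tested P450 genes in each library from the gene's own mean over the 6 libraries, as log2(CPM + 0.5), red above and blue below the mean, with genes ordered by role. Control replicate 1 has 15 of the 22 genes above the mean, CYP26B1 is low in control replicates 1 and 2, and CYP2C19 is low in overexpression replicates 2 and 3.

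Of 41 genes that supply P450 enzymes with electrons or heme or that regulate their transcription, 39 were tested. 27 had a positive and 12 a negative log2 fold change, with a median of 0.066. None passed the adjusted test in edgeR or DESeq2. None passed it in limma, which tested 8 electron transfer, 11 heme and 15 regulator genes and did not test PPARA. At an unadjusted p under 0.05, 4 were higher (2.42% of all genes) and 0 were lower (3.08% of all genes).

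The 9 genes of electron transfer were all tested, and none reached an unadjusted p of 0.05. POR, the reductase of the microsomal enzymes, measured 172, 143 and 143 CPM against 143, 159 and 147 CPM, with an interval of -0.21 to 0.26 for the log2 fold change. PGRMC1, a heme-binding partner, measured 173, 162 and 160 CPM against 120, 166 and 154 CPM. Both genes overlapped between groups. CYB5B, an outer mitochondrial cytochrome, was the least even, with 101, 196 and 99.6 CPM against 55.4, 202 and 206 CPM.

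Of the 12 heme genes, 9 had positive estimates. HMOX1, which degrades heme, measured 65.2, 59.8 and 56.5 CPM against 47.8, 49.1 and 54.5 CPM in the controls. The groups did not overlap, at a log2 fold change of 0.26 ± 0.10 (SE), an unadjusted p of 0.0318 and an edgeR adjusted p of 0.797. ALAS1, the rate-limiting enzyme of heme synthesis in liver, measured 77.3, 84.3 and 78.9 CPM against 75.6, 65.0 and 86.2 CPM, which overlapped. UROD, a later step of heme synthesis, measured 86.7, 97.8 and 88.7 CPM against 69.95, 86.4 and 83.8 CPM without overlap, and its log2 fold change of 0.19 had an interval of -0.063 to 0.43. CPOX, the step after UROD, measured 55.1, 55.4 and 61.0 CPM against 66.9, 59.8 and 62.3 CPM, which overlapped.

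Of the 20 regulators, 18 were tested. NFE2L2, the transcription factor NRF2 of the oxidative stress response, measured 511, 228 and 471 CPM in the overexpression libraries and 179, 217 and 126 CPM in the controls. The groups did not overlap, although overexpression replicate 2 lay close to the highest control. The log2 fold change was 1.21 ± 0.30 (SE), with an unadjusted p of 0.0036 and an edgeR adjusted p of 0.797. PPARA, the nuclear receptor for fatty acids, measured 24.2, 7.42 and 11.4 CPM against 6.37, 5.45 and 7.32 CPM. Its groups did not overlap, with a log2 fold change of 1.17 ± 0.40 (SE), an unadjusted p of 0.018 and an edgeR adjusted p of 0.797, and it was 0.56 without overexpression replicate 1.

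CEBPA, a liver transcription factor, measured 350.1, 325 and 329 CPM against 216, 309 and 277 CPM, without overlap, at a log2 fold change of 0.32 ± 0.13 (SE), an unadjusted p of 0.0368 and an edgeR adjusted p of 0.797. HNF4A, which maintains many P450 genes in hepatocytes, measured 76.2, 114 and 85.6 CPM against 197, 100.1 and 105 CPM. Control replicate 1 stood well above the other libraries, the groups overlapped, and the log2 fold change was -0.54 with all libraries and -0.16 without that control. The same control had the highest level of APOB, a hepatocyte marker that was lower in the overexpression group at an unadjusted p of 0.0459. APOB was not typical of the 8 hepatocyte markers. Of these, 6 had a positive and 2 a negative log2 fold change, with a median of 0.056. The part of HNF4A and APOB levels in the values of the drug-oxidizing genes was not tested.

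AHR measured 156, 162 and 159 CPM in the overexpression libraries and 198, 158 and 182 CPM in the controls, and the interval of its log2 fold change ran from -0.40 to 0.057. The groups overlapped, with control replicate 2 among the overexpression libraries. NR1I2, the receptor PXR, stood at 2.12 to 2.85 CPM in all 6 libraries, and NR1I3, the receptor CAR, had at most 0.170 CPM and was not tested.

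**Figure D5:**
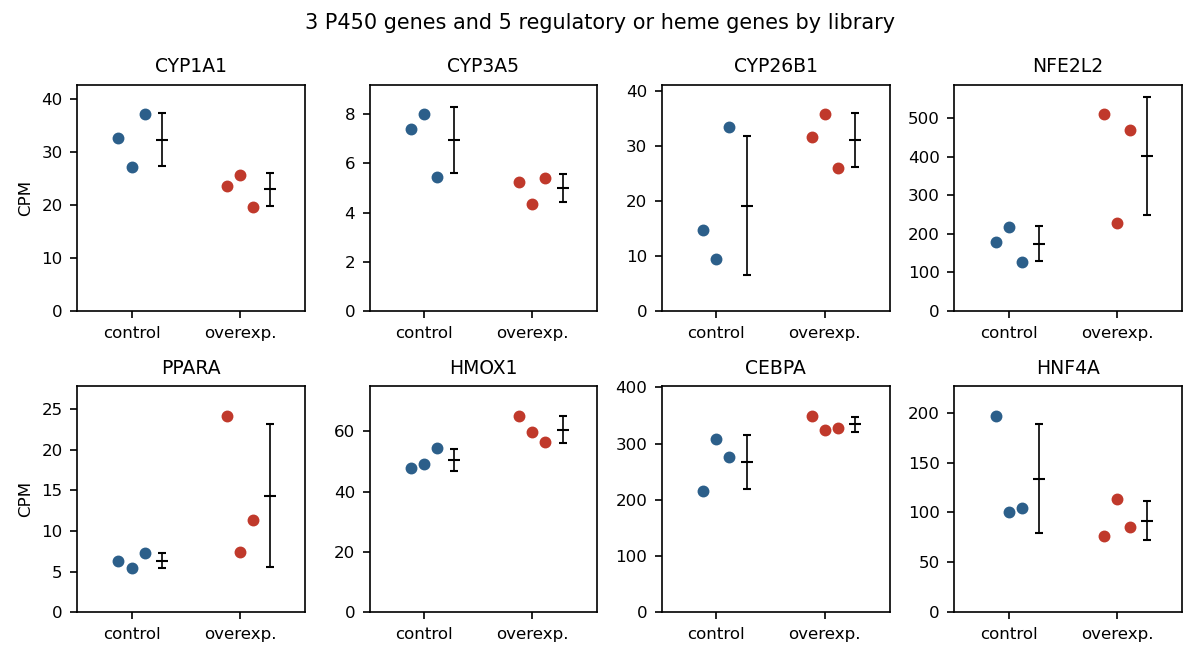
CPM by library for 3 P450 genes (CYP1A1, CYP3A5, CYP26B1) and 5 genes of P450 regulation or heme breakdown (NFE2L2, PPARA, HMOX1, CEBPA, HNF4A), blue for control and red for overexpression, with the mean and SD of 3 libraries in black. Axes start at 0. CYP1A1 and CYP3A5 are lower and NFE2L2, PPARA, HMOX1 and CEBPA higher in all overexpression libraries, and HNF4A is set apart by control replicate 1.

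3 P450 enzymes fall outside the symbol pattern or were set aside. CYP51A1, which demethylates lanosterol in cholesterol synthesis, measured 340.4, 339 and 358 CPM against 308, 336 and 359.6 CPM. The groups overlapped, and its log2 fold change of 0.047 had an interval of -0.15 to 0.25. TBXAS1, the thromboxane synthase, and PTGIS, the prostacyclin synthase, had log2 fold changes of 0.62 and -0.24, and the values of both overlapped between groups.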

How the data were processed

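Total RNA of 6 Huh7 libraries was sequenced, and the titles of the samples gave the groups. Unnormalized read counts and FPKM values per gene were deposited by the authors in 1 table. Per the labels, the submitters' processing notes name TopHat2 2.0.9 and hg38. The counting tool, strand handling and annotation are not given in the sources used here. The authors' FPKM used a length of 1.09 to 5.32 times the merged exons in the 18 tested P450 genes with at least 100 reads.

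Counts were tested with edgeR 4.0.16 run under R 4.3.3 (filterByExpr, count minimum 10, TMM, quasi-likelihood, two-sided, Benjamini-Hochberg over 15055 genes, threshold 0.05). CPM used the normalized library sizes, and levels per kilobase used GENCODE 29 merged exons. Single values were compared by exact permutation of log2(CPM + 0.5), and the fits were tested on simulated data. Other settings were normalization by RLE or by the upper quartile, DESeq2 1.42.0, filters of 1 count and of a mean of 50 counts, limma 3.58.1 on log2(FPKM + 1) and log2(FPKM + 0.1) where 3 or more libraries reached 1 FPKM, a replicate block, summed subfamilies and leaving out each library. List medians under these settings were added after the values were seen. Promoters came from RefSeq.

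The P450 members and the lists were chosen with earlier results of these data known. Full statistics are given for SOX5, PPARA, the 8 tested members with the highest mean CPM, the 5 largest positive and the 5 largest negative fold changes, and any with an unadjusted p under 0.05 or groups without overlap. The values of 1 tested member are not reported here, and it enters only counts, medians and sums. Untested members are named with at least 10 reads in total. Of the other lists, genes with an unadjusted p under 0.05, the 3 most abundant of each list, POR, ALAS1, AHR, NR1I2, NR1I3, HNF4A and PPARA are named. Pairs of libraries within a group gave chi-square values of 10.1 to 20.9 per degree of freedom, so none was a copy. The reads carry no molecular identifiers, so the limits given for a count of 0 cover counting error only.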

Additional observations from a re-analysis of the deposited data

How the results depend on the processing

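No P450 gene and no partner, heme or regulator gene was called under any alternative, and the lowest adjusted p of a P450 gene was 0.321, without control replicate 3. In that setting, 4 of the 23 tested P450 genes had an unadjusted p under 0.05. The share over all genes was not computed there, so this count cannot be read as an excess. The median log2 fold change of the P450 genes was -0.011 with limma on log2(FPKM + 1) and -0.0059 on log2(FPKM + 0.1), both over 10 genes, and ran from -0.20 to 0.036 when each library was left out, the highest being without control replicate 1. Calls over all genes were 28 with DESeq2, against 6, and 4 to 16 when each library was left out. Replicate numbers of the 2 groups did not pair the libraries (correlations -0.036, -0.023 and -0.031), and the replicate block gave 4 calls over all genes, 0 among the P450 genes and a P450 median of -0.14.

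Of 476 alternative values for 36 named genes, 456 kept direction and side of the threshold and 20 turned the direction, in 13 genes, none of them called. With subfamily counts summed, the log2 fold change was -0.067 for CYP2D6 and -0.17 for CYP4F12, by the added reads of related genes. When each library was left out, it ran from -0.26 to 0.099 for CYP4V2, -0.22 to 0.098 for CYP2J2, -0.17 to 0.39 for CYP19A1, -0.64 to 0.15 for CYP3A7, -0.31 to 0.11 for CYP2C18, -0.028 to 0.39 for CYP2U1, -0.047 to 0.093 for CYP4F12, -0.52 to 0.10 for CYP1B1, -0.067 to 0.073 for POR, -0.63 to 0.036 for CYB5B, -0.014 to 0.19 for ALAS1 and -0.066 to 0.19 for NR1I2. For the other changes, the cause was not tested. For the 5 tested P450 genes under 100 reads in total, the standard error of the log2 fold change ran from 0.345 to 1.05. It was 0.392 for CYP26B1, which had 1945 reads. The part of depth in these errors was not tested.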
